A study of Mus musculus with 4 samples.

Results

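The 40 genes described here are genes of the G2 phase and mitosis, chosen by name from what they are known to do. They are mitotic cyclins and kinases, partners of the anaphase-promoting complex, kinetochore proteins, spindle motors, cytokinesis factors and chromosome proteins. They were taken by symbol from a table of 55421 gene identifiers, with earlier results of these data known. All 40 were found, all are annotated as protein-coding, and all 40 were among the 18547 genes that passed the filter on low values (a normalised read count of at least 10 in at least 2 libraries). RNA was sequenced from YFP-positive neural stem cells of adult mice in 4 libraries, 2 labelled WT and 2 labelled Opa1KO. Both genotypes were on a C57/BL/6 background and carried Nestin-CreERT2 and a Rosa26 YFP reporter that Cre switches on, and both received tamoxifen. The Opa1 KO mice in addition carried Opa1 flox/flox. Nestin drives the Cre in adult neural stem cells, and their progeny keep YFP, so the sorted population can hold stem cells, dividing progenitors and neuroblasts together. For the bulk libraries the study's text names the subventricular zone, the niche beside the lateral ventricles. Both sexes were used, the labels do not say how many animals a library holds, and they give no interval between tamoxifen and the sort, for which the study's text is not uniform.

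In a dividing cell, cyclin A and cyclin B bind the kinase CDK1 and drive entry into mitosis. The Aurora and Polo kinases build the spindle, kinetochores attach chromosomes to it, and the BUB proteins and TTK hold the cell until attachment is complete. CDC20 then directs the anaphase-promoting complex to destroy cyclin B, and the midzone and contractile ring divide the cell. In the adult subventricular zone, stem cells are mostly quiescent, while activated stem cells, transit amplifying cells and early neuroblasts divide. Transcripts of these genes accumulate in G2 and M, largely through the DREAM and MuvB complexes with B-MYB and FOXM1, which act through a promoter element named CHR, often beside CCAAT boxes bound by NF-Y.

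The promoter letters are shown for 1 or 2 genes of each role with a CHR match, because most of the genes hold one and it did not enter their choice. RefSeq promoters (GRCm38.p6, 250 bases before to 50 bases after each start) matched 33 of the 40 genes. Aurkb, Ccna2, Cdc25c, Dlgap5, Kif20a, Smc4 and Tpx2 had no entry. Each line gives 30 bases on the strand of the gene, 5′ to 3′, and capitals mark the CHR letters TTTGAA or their reverse complement TTCAAA.
Cdk1 (chr10:69352910-69352939, minus strand): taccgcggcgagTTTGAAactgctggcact
Ccnb2 (chr9:70421533-70421562, minus strand): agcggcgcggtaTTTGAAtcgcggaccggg
Plk1 (chr7:122159453-122159482, plus strand): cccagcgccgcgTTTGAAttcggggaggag
Cdc20 (chr4:118437344-118437373, minus strand): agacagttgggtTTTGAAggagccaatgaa
Cenpf (chr1:189688067-189688096, minus strand): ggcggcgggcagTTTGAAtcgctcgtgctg
Kif11 (chr19:37376351-37376380, plus strand): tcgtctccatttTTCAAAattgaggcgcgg
Prc1 (chr7:80294434-80294463, plus strand): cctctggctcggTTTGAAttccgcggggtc
Top2a (chr11:99024195-99024224, minus strand): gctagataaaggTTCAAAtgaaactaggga
TTTGAA, on either strand, was found in 25 of the 33 promoters. Among all 27025 genes with a RefSeq promoter of this length, 20.2% held it. In 22 of the 25 genes a match began between 60 bases before and 50 bases after the start. CCAAT, on either strand, was also found in 25 of 33, against 41.1% of all genes, and 20 of the 33 held both motifs. Neither was found in Birc5, Nuf2 or Nusap1. The E2F-type letters GCGGGAA, on either strand, were in 0 of 33, against 5.29% of all genes. In 25 matched genes of S phase and DNA replication, listed as a comparison, GCGGGAA was in 11, CCAAT in 16 and TTTGAA in 3. In 68 matched mitotic genes outside the 40, TTTGAA was in 33. A gene with more than 1 promoter entry counted once, if any of them held the letters. A match to these letters is a description of the window and was not tested as a binding site. CHR elements of other letters were not searched for.

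The genes with the lowest and the highest fold change, Ccnb1 and Cdc25b, are both among the 8 matched genes without TTTGAA. Their promoters are given whole, with CCAAT or its reverse complement ATTGG in capitals.
Ccnb1 (chr13:100786437-100786736, minus strand): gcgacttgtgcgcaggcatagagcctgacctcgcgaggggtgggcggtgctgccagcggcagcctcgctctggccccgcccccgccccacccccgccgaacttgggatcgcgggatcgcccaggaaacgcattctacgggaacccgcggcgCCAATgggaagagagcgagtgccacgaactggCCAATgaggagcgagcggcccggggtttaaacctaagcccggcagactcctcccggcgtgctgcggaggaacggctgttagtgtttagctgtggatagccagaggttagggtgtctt
Cdc25b (chr2:131186698-131186997, plus strand): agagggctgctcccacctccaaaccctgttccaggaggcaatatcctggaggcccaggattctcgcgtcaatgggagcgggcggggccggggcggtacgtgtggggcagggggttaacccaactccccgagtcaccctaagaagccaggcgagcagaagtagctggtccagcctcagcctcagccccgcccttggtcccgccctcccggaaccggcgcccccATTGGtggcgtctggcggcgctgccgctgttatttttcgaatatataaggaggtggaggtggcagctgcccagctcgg
The Ccnb1 window holds CCAAT at 2 positions and the Cdc25b window at 1. The median log2 fold change was -0.34 over the 25 genes with TTTGAA and -0.36 over the 8 matched genes without. Because only TTTGAA and its reverse complement were searched, the 8 genes are not shown to lack a CHR of other letters.

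Recovered reads per library ranged from 19985853 to 23237326. Opa1 itself, which checks the labels, was at 3039 and 2833 in WT against 837 and 739 in Opa1 KO, so both libraries labelled Opa1KO were far below both WT libraries. On log2(value + 1), its fold change was -1.90 ± 0.13 (estimate ± SE), and the limma-trend test adjusted over all genes did not call it (adjusted p = 0.998, unadjusted p = 6.95e-05), whereas DESeq2 did. No gene of the 18547 was called by that test in the lower or the higher direction, while 196 lower and 470 higher genes had an unadjusted p under 0.05. On the whole reads recovered from the same values, edgeR and limma-voom called 0 genes each, and DESeq2 called 16 lower and 44 higher. The labels do not tie the libraries to separate animals. The p-values therefore measure only how far these libraries spread, which may be technical.

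The question put to the 40 genes was whether their transcripts differed between WT and Opa1 KO cells. Of the 40, 39 had a lower mean in Opa1 KO, against 51.0% of all genes tested. Their median log2 fold change was -0.34, a WT level 1.27 times the Opa1 KO level, beside a median of -0.01 over all genes. No gene of the 40 passed the test with genotype only. The adjusted p from limma-trend was 0.998 for each of them, and the smallest unadjusted p was 0.225, for Cenpe. The share of all genes called lower was 0% at the adjusted threshold and 1.06% at an unadjusted p under 0.05, and 0 of the 40 reached either. DESeq2 called 0 of the 40, with 0.0863% of all genes called lower, and 0 of the 40 had an unadjusted p under 0.05 by DESeq2, edgeR or limma-voom. The 95% interval of the fold change held 0 for all 40 genes, with lower ends between -2.04 and -0.82 and upper ends between 0.41 and 1.21, so that a change of 2-fold in either direction lies within the interval of some of these genes. These results depend on the design. With the replicate number as a block, limma-trend called 2 of the 40, Ccnb1 and Ube2c, both lower. Of all 18547 genes it called 59 lower, and 0.981% in the 2 directions together. In that fit 34 of the 40 had an unadjusted p under 0.05, all lower, as had 8.49% of all genes in that direction. No label says that equal numbers mark pairs. In sorted bulk RNA, fewer dividing cells and less of each transcript per dividing cell cannot be told apart.

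The libraries of one genotype stood far apart, and in the same way for nearly every gene. In 38 of the 40 genes the order from highest to lowest was WT 1, Opa1 KO 1, WT 2, Opa1 KO 2. This common order was shared by 14.1% of all genes tested. Opa1 KO 1 was below WT 1 in 38 of the 40 genes and Opa1 KO 2 below WT 2 in 39. Both held together in 38 of the 40, against 6140 of the 18547 genes tested. Both Opa1 KO libraries were below both WT libraries in 0 of the 40 genes, against 15.7% of all genes, as the common order itself implies for the 38. Opa1 KO 1 was above WT 2 in all 40 genes. WT 1 exceeded WT 2 by a median of 0.62 on the log2 scale (range 0.30 to 0.99), and Opa1 KO 1 exceeded Opa1 KO 2 by a median of 0.83 (range 0.48 to 1.04). The difference between the 2 WT libraries was larger than the difference between the genotype means in 38 of the 40 genes, and that between the 2 Opa1 KO libraries in all 40. Counting error was small beside this. The lowest recovered count of a member in a library was 481 reads (Dlgap5 in Opa1 KO 2), a counting error of 4.56%, while for Top2a it was at most 1.14%. Leaving out Opa1 KO 2 moved the median log2 fold change to 0.06, with 14 of 40 genes below 0, and leaving out WT 1 moved it to -0.05, with 28 of 40 below 0. Without WT 2 it was -0.66, and without Opa1 KO 1 it was -0.77.

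**Figure D1:**
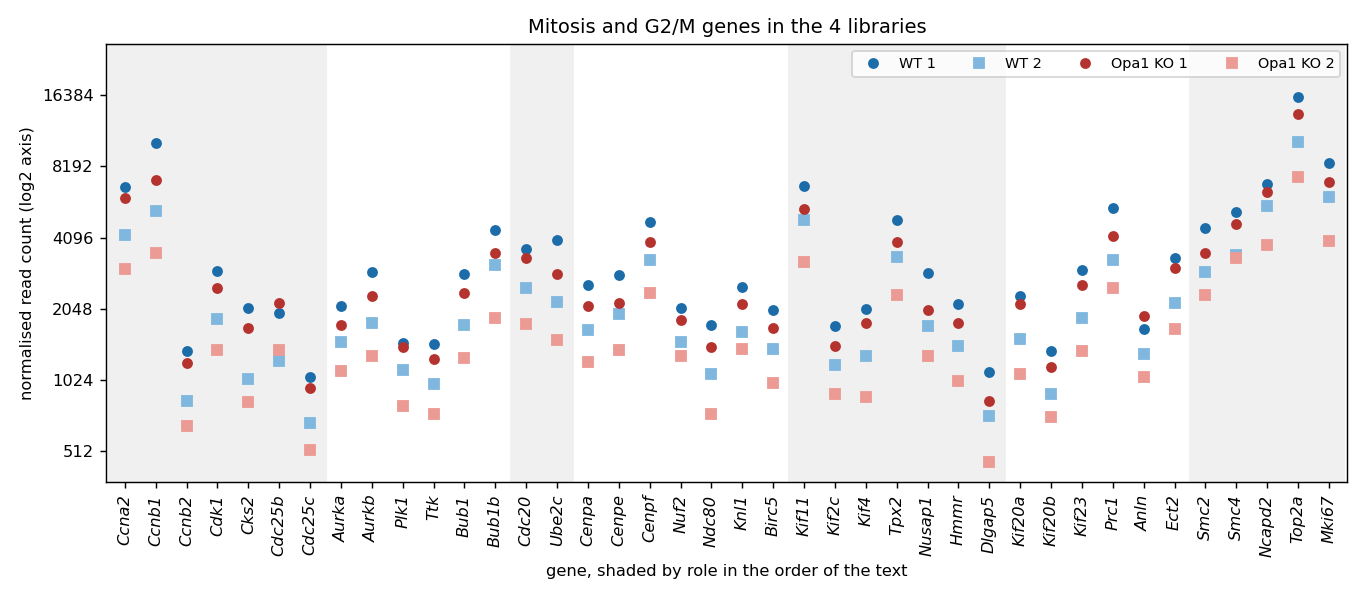
Normalised read counts (log2 axis) of the 40 genes in the 4 libraries, grouped by role with alternating shading; each point is 1 library, circles are replicates 1 and squares replicates 2. WT 1 is the highest and Opa1 KO 2 the lowest point for nearly every gene, and Opa1 KO 1 lies above WT 2 in all 40.

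Among the cyclins and CDK regulators, Ccnb1 and Cdc25b lay at the 2 ends of the 40 genes. Ccnb1, the B-type cyclin that carries CDK1 activity into mitosis (chr13:100778650-100786570, minus strand), was at 10340 and 5308 in WT against 7180 and 3520 in Opa1 KO, or 7824 ± 3558 in WT and 5350 ± 2588 in Opa1 KO (mean ± SD, n = 2 each). Its log2 fold change -0.56 ± 0.52 was the lowest of the 40, yet Opa1 KO 1 stood above WT 2. Ccnb2, the second B-type cyclin, was at 1356 and 831 in WT against 1205 and 657 in Opa1 KO (log2 fold change -0.25 ± 0.41). Cdk1, the kinase they bind, was at 2952 and 1857 in WT against 2500 and 1366 in Opa1 KO (log2 fold change -0.34 ± 0.40). In both genes the higher Opa1 KO library lay between the 2 WT libraries. Ccna2, the A-type cyclin of S and G2, was at 6713 and 4222 in WT against 6049 and 3016 in Opa1 KO (log2 fold change -0.32 ± 0.45). Cks2, a small CDK-binding subunit, had the widest spread, with WT 1 and Opa1 KO 1 each about 1 log2 unit above the other library of their genotype (log2 fold change -0.30 ± 0.53). Cdc25c, a phosphatase that activates CDK1, had a log2 fold change -0.27 ± 0.40.

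Cdc25b, the phosphatase that starts CDK1 activation at the G2/M transition (chr2:131186949-131198497, plus strand), was the only gene of the 40 with a higher mean in Opa1 KO. It was at 1974 and 1232 in WT against 2177 and 1374 in Opa1 KO, or 1603 ± 524 in WT and 1775 ± 568 in Opa1 KO (mean ± SD, n = 2 each). Opa1 KO 1 was above WT 1 and Opa1 KO 2 above WT 2, but WT 1 was also above Opa1 KO 2, and the log2 fold change 0.15 ± 0.35 was smaller than the difference between the libraries of either genotype (limma-trend, unadjusted p = 0.692, adjusted p = 0.998). Without WT 2 it was -0.19, and without Opa1 KO 1 it was -0.18. The annotated exons of Cdc25b overlap those of Spef1 on the opposite strand over 92 bases, and no source used here says whether reads were counted by strand.

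The 6 mitotic kinases and checkpoint kinases all had the common order of libraries, 6 of 6, and their median log2 fold change was -0.35. Aurka, the centrosomal Aurora kinase, was at 2100 and 1487 in WT against 1747 and 1112 in Opa1 KO (log2 fold change -0.34 ± 0.30). Aurkb, the kinase of the chromosomal passenger complex, was at 2918 and 1781 in WT against 2319 and 1289 in Opa1 KO (log2 fold change -0.40 ± 0.41). Plk1, the Polo kinase, was at 1467 and 1125 in WT against 1415 and 796 in Opa1 KO (log2 fold change -0.28 ± 0.34). WT 1 and Opa1 KO 1 differed little for Plk1, and Opa1 KO 2 was the low library. Bub1, a checkpoint kinase at the kinetochore, was at 2873 and 1743 in WT against 2388 and 1271 in Opa1 KO (log2 fold change -0.36 ± 0.43). Bub1b, which encodes the checkpoint protein BUBR1, was at 4430 and 3140 in WT against 3511 and 1874 in Opa1 KO (log2 fold change -0.54 ± 0.38), the second lowest fold change of the 40. Opa1 KO 2 was again the library that stood low, with Opa1 KO 1 between the 2 WT values. Ttk, the checkpoint kinase MPS1, had a log2 fold change -0.31 ± 0.35.

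The anaphase-promoting complex was represented by its activator and its ubiquitin-conjugating enzyme. Cdc20 was at 3654 and 2516 in WT against 3350 and 1760 in Opa1 KO (log2 fold change -0.32 ± 0.39). Ube2c was at 4016 and 2195 in WT against 2871 and 1515 in Opa1 KO (log2 fold change -0.51 ± 0.47). For Ube2c, WT 1 was well above WT 2, a wider gap than that between the genotype means.

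The 7 kinetochore and centromere genes had a median of -0.37 and 7 of 7 had the common order. Birc5, or survivin, a subunit of the chromosomal passenger complex, was at 2028 and 1385 in WT against 1701 and 993 in Opa1 KO (log2 fold change -0.37 ± 0.35). Cenpa, the histone H3 variant of centromeres, had a log2 fold change -0.37 ± 0.37, and Cenpe, a kinesin that moves chromosomes to the spindle equator, -0.45 ± 0.31. Cenpf, a large kinetochore protein, was at -0.38 ± 0.33. Of the outer kinetochore, which binds microtubules, Ndc80 was at -0.44 ± 0.43, Knl1 at -0.24 ± 0.33 and Nuf2 at -0.18 ± 0.26. Ndc80 and Nuf2 encode partners of one complex, and the difference between their fold changes was not tested.

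Among the 7 spindle motors and assembly factors, the median was -0.42, beside -0.35 for the kinases, and 7 of 7 had the common order. Kif11, the plus-end motor that separates spindle poles, was at 6760 and 4855 in WT against 5415 and 3222 in Opa1 KO (log2 fold change -0.46 ± 0.33). The other 6 were Kif2c, a microtubule depolymerase (-0.35 ± 0.32), the chromokinesin Kif4 (-0.39 ± 0.46), the Aurora A activator Tpx2 (-0.42 ± 0.34) and the microtubule-binding genes Nusap1 (-0.46 ± 0.36), Hmmr (-0.38 ± 0.37) and Dlgap5 (-0.52 ± 0.39). Dlgap5 was the least abundant of the 40 per kilobase of exon, at 115 normalised reads per kilobase averaged over the 4 libraries, and Cks2 the most abundant, at 2028.

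The 6 genes of the midzone and cytokinesis had a median of -0.29, and 5 of 6 had the common order. Prc1, which bundles midzone microtubules, had a log2 fold change -0.39 ± 0.38, the kinesins Kif20a, Kif20b and Kif23 -0.31 ± 0.42, -0.27 ± 0.34 and -0.33 ± 0.43, and Ect2, the exchange factor that activates RhoA at the cleavage site, -0.26 ± 0.39. The exception to the order was Anln, a scaffold of the contractile ring, at 1686 and 1317 in WT against 1905 and 1050 in Opa1 KO. Opa1 KO 1 was the highest and Opa1 KO 2 the lowest library for Anln, so the Opa1 KO values enclosed both WT values (log2 fold change -0.08 ± 0.34).

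The 5 chromosome genes had a median of -0.34, and 5 of 5 had the common order. Their summed normalised reads were 41303 and 28399 in WT and 35322 and 20843 in Opa1 KO. Top2a, the topoisomerase that untangles sister chromatids, was at 16188 and 10349 in WT against 13707 and 7384 in Opa1 KO (log2 fold change -0.36 ± 0.40). Mki67, which encodes the proliferation marker Ki-67, was at 8457 and 6080 in WT against 7024 and 3949 in Opa1 KO (log2 fold change -0.45 ± 0.35). WT 2 and Opa1 KO 1 stood between WT 1 and Opa1 KO 2 for both genes. Smc2, a condensin core subunit, was at 4500 and 2927 in WT against 3513 and 2348 in Opa1 KO (log2 fold change -0.34 ± 0.31). Its condensin partner Smc4 had a log2 fold change -0.11 ± 0.29, nearest to 0 of the genes in the common order, and Ncapd2, a condensin I subunit, -0.33 ± 0.30.

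**Figure D2:**
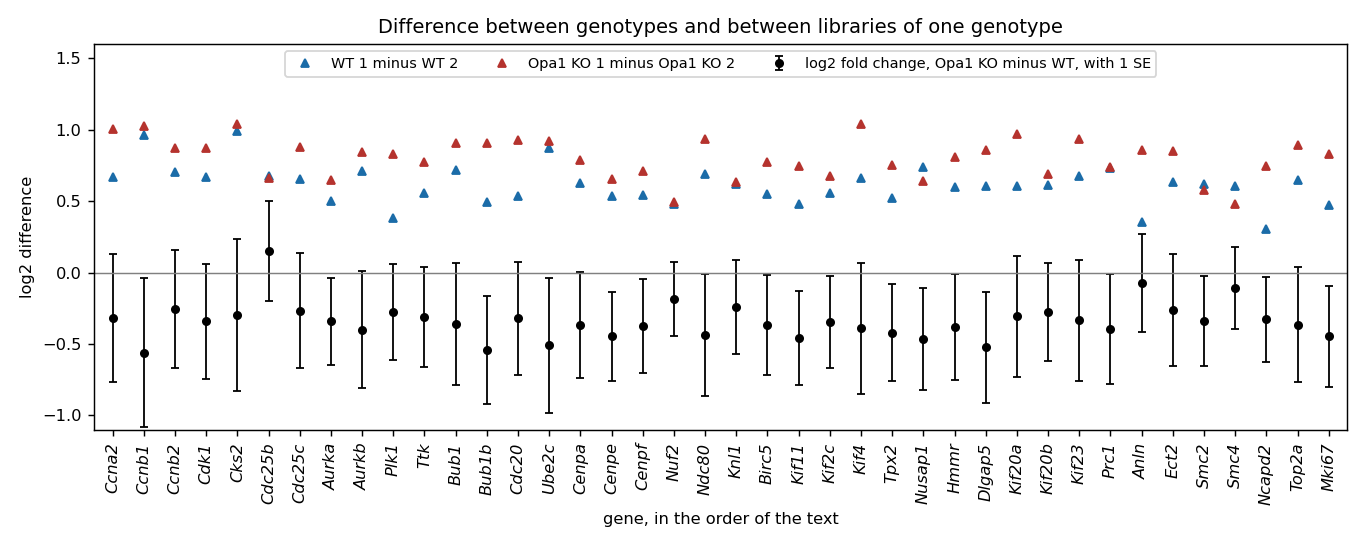
Log2 fold change of Opa1 KO against WT with 1 SE (black), beside the log2 difference between the 2 WT libraries (blue triangles) and between the 2 Opa1 KO libraries (red triangles), for each of the 40 genes. The triangles, between 0.30 and 1.04, lie farther from 0 than the fold changes, between -0.56 and 0.15, except for the WT triangles of 2 genes.

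Because nearly all of the 40 genes ranked the libraries alike, each was also set against their median in the same library, as a description with no test. Relative to that median, the log2 level of Cdc25b was -0.53 and -0.50 in WT and 0.00 and 0.05 in Opa1 KO. Both Opa1 KO libraries were above both WT libraries on this scale, by 0.54 on average. Anln was at -0.76 and -0.40 in WT and -0.19 and -0.34 in Opa1 KO, again without overlap. Smc4 was at 0.88 and 0.99 in WT and 1.10 and 1.33 in Opa1 KO. Ccnb1 was at 1.86 and 1.61 in WT and 1.73 and 1.41 in Opa1 KO, lower in Opa1 KO on average by 0.17 but with overlapping groups. On this scale, 8 of the 40 genes had both Opa1 KO libraries above both WT libraries, against 14.6% of all genes: Ccnb2, Cdc25b, Cdc25c, Knl1, Kif20b, Anln, Ect2 and Smc4. In the other direction 2 did, Nusap1 and Dlgap5, against 0.873% of all genes. The median is set by the 40 genes themselves, so these shares are not comparable in a strict sense. Cdc25b, Anln and Smc4 had the highest fold changes of the 40 and Ccnb1 the lowest. The direction of their mean difference from that median therefore follows from the choice.

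**Figure D3:**
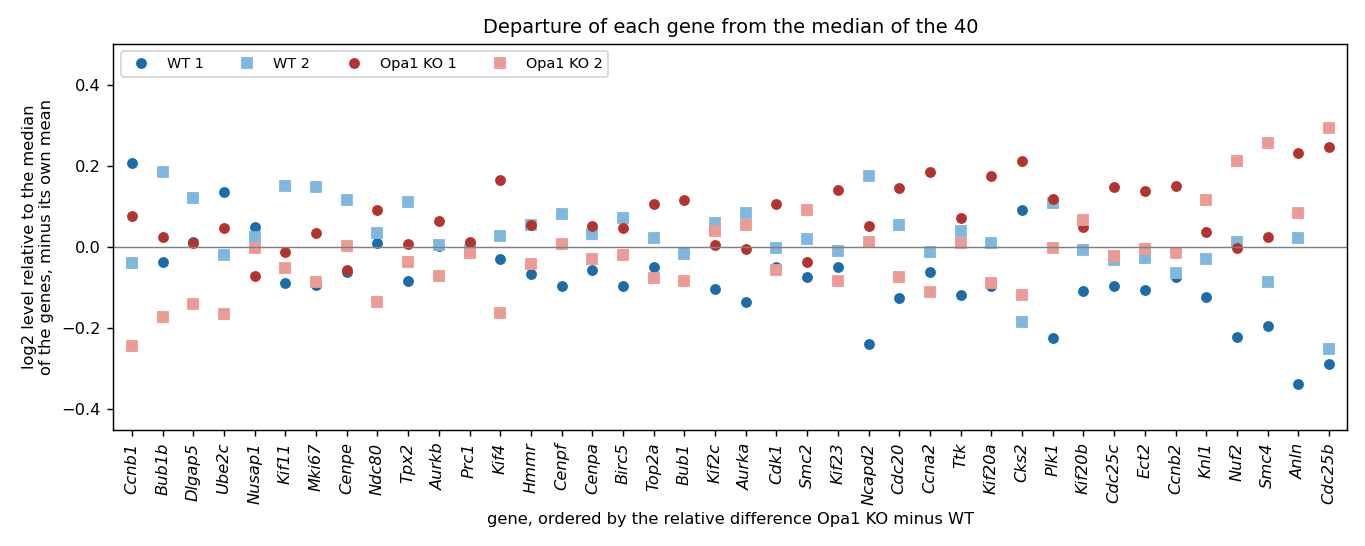
Log2 level of each gene relative to the median of the 40 genes in the same library, after its own mean over the 4 libraries was subtracted, ordered by the difference Opa1 KO minus WT. At the right end, both Opa1 KO points of Cdc25b lie above 0.2 and both WT points below -0.2, while Ccnb1 at the left end has WT 1 and Opa1 KO 1 above 0.

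Other cell cycle genes had much the same order of libraries. The summed normalised reads of the 40 were 148001 and 96688 in WT and 123415 and 70354 in Opa1 KO, which was 0.658% and 0.436% of the WT libraries and 0.567% and 0.33% of the Opa1 KO libraries. A further 82 mitotic genes, outside the 40, were lower in mean in 79 cases and in the common order in 71, and their median log2 fold change was -0.29. Both Opa1 KO libraries were below both WT libraries in 4 of the 82, against 15.7% of all genes. One of them was Cenpt, a centromere protein, at 1137 and 1042 in WT against 939 and 775 in Opa1 KO (log2 fold change -0.35 ± 0.16, unadjusted p = 0.0831, adjusted p = 0.998, limma-trend). The smallest p of the other 2 mitotic lists belonged to Cit, the citron kinase of cytokinesis (-0.35 ± 0.22), and Lmnb1, which encodes lamin B1 (-0.34 ± 0.25).

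For the 30 genes of S phase and DNA replication, 30 of 30 were lower in mean, with a median of -0.30, and 29 had the common order. Their summed reads were 104899 and 69931 in WT and 85395 and 52954 in Opa1 KO. Rrm2, a subunit of ribonucleotide reductase, was at 13328 and 8367 in WT against 8473 and 5051 in Opa1 KO (log2 fold change -0.69 ± 0.37), the smallest p of this list (limma-trend, unadjusted p = 0.135, adjusted p = 0.998). In Rrm2, Opa1 KO 1 and WT 2 nearly coincided. Pcna, the sliding clamp of DNA polymerases, was at 6607 and 4056 in WT against 5806 and 3496 in Opa1 KO (log2 fold change -0.20 ± 0.37). The ratio of the 40 genes to the S phase genes was 1.41 and 1.38 in WT and 1.45 and 1.33 in Opa1 KO, so the 2 lists kept nearly one proportion in all 4 libraries.

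Of 12 genes of G1 cyclins, CDKs and E2F factors, 9 were lower in mean and 9 had the common order. Ccnd2, the D-type cyclin of neural progenitors, was at 66113 and 47264 in WT against 58035 and 36193 in Opa1 KO (log2 fold change -0.29 ± 0.31), and Ccnd1 at 337 and 173 in WT against 229 and 258 in Opa1 KO (log2 fold change 0.01 ± 0.37). Ccne2, a cyclin of the G1/S transition, had the smallest p of this list (-0.51 ± 0.32). Among 9 tested CDK inhibitors and quiescence regulators, 5 were lower and 3 had the common order. Cdkn1a, the p21 inhibitor, was at 1057 and 1096 in WT against 1119 and 1367 in Opa1 KO. Both its Opa1 KO values were above both WT values, by little (log2 fold change 0.20 ± 0.15). Cdkn1b, or p27, had a log2 fold change -0.18 ± 0.23, and E2f4, an E2F factor of the DREAM complex, -0.26 ± 0.13. For E2f4 both Opa1 KO values were below both WT values. In 2 of the 9 genes both Opa1 KO libraries were above both WT libraries, against 15.2% of all genes. In another 2 both were below, against 15.7%.

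Of 10 genes that transcribe mitotic genes, 9 were lower in mean and 6 had the common order. Foxm1 was at 3210 and 2384 in WT against 3273 and 1799 in Opa1 KO (log2 fold change -0.19 ± 0.36), with Opa1 KO 1 slightly above WT 1. Mybl2, which encodes B-MYB, was at 764 and 714 in WT against 702 and 495 in Opa1 KO (log2 fold change -0.32 ± 0.22), with both Opa1 KO libraries below both WT libraries. Lin52, a MuvB subunit, was the gene of the list that was higher in Opa1 KO (0.23 ± 0.12), with both Opa1 KO libraries above both WT libraries. Each direction without overlap held for 1 of the 10 genes, against 15.7% of all genes for lower and 15.2% for higher. With genotype only, no gene of these cell cycle lists passed the test by limma-trend, DESeq2, edgeR or limma-voom. None had an unadjusted p under 0.05 by any of the 4 tools.

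Markers of the cell types that the sort could hold also differed between the libraries. Neuroblast markers summed to 141891 and 120955 in WT and 107857 and 89027 in Opa1 KO. In 10 of 12 both Opa1 KO libraries were below both WT libraries, against 15.7% of all genes. Dcx, a microtubule protein of neuroblasts, was at 23028 and 20655 in WT against 17099 and 14067 in Opa1 KO (limma-trend, unadjusted p = 0.035, adjusted p = 0.998). Markers of activated stem cells and transit amplifying cells summed to 21745 and 17418 in WT and 22358 and 17982 in Opa1 KO. The ratio of the 40 genes to those markers was 6.81 and 5.55 in WT and 5.52 and 3.91 in Opa1 KO, and the ratio to the neuroblast markers was 1.04 and 0.799 in WT and 1.14 and 0.79 in Opa1 KO. Only the first of these ratios was lower in both Opa1 KO libraries, with 5.55 and 5.52 nearly touching.

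Other marker lists differed from the 40 genes in their order. Quiescent stem cell and astrocyte markers summed to 146563 and 188584 in WT and 205190 and 254568 in Opa1 KO, and in 6 of 12 both Opa1 KO libraries were above both WT libraries, against 15.2% of all genes. Oligodendrocyte markers summed to 45191 and 23702 in WT and 60798 and 59380 in Opa1 KO, with 8 of 8 genes higher in both Opa1 KO libraries, and pericyte markers to 3786 and 2697 in WT and 6670 and 6954 in Opa1 KO, with 7 of 8. Ependymal markers, from ciliated cells that line the ventricle, summed to 5568 and 35377 in WT and 8489 and 32690 in Opa1 KO, high in the 2 libraries in which the 40 genes were low for their genotype. Of the microglial markers, 7 summed to 1680 and 203 in WT and 1722 and 443 in Opa1 KO, high in the 2 libraries in which the 40 genes were also high for their genotype. Endothelial markers summed to 1459 and 2289 in WT and 1794 and 4641 in Opa1 KO and oligodendrocyte precursor markers to 4440 and 1961 in WT and 2402 and 4007 in Opa1 KO. The gene of smallest p was Slc1a2 (0.61 ± 0.12), Cnp (0.53 ± 0.13), Pdgfrb (1.01 ± 0.11), Dynlrb2 (0.34 ± 1.18), Ly6c1 (0.99 ± 0.58) and Sox10 (0.84 ± 0.36), in the order of those lists with the microglial one left out, and Hes5 (0.39 ± 0.27) among the activated and transit amplifying markers. None passed limma-trend, and DESeq2 called Slc1a2, Slc1a3, Aldoc, Pdgfrb, Abcc9 and Vtn higher. No marker of these lists was at 0 in any library. The gene of smallest p does not stand for every list. Of the oligodendrocyte precursor markers, 4 were lower and 4 higher in mean in Opa1 KO, with a median log2 fold change of 0.015. Of the activated and transit amplifying markers, 4 were lower and 6 higher, with a median of 0.07. The part of these cell types in the levels of the 40 genes was not tested.

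**Figure D4:**
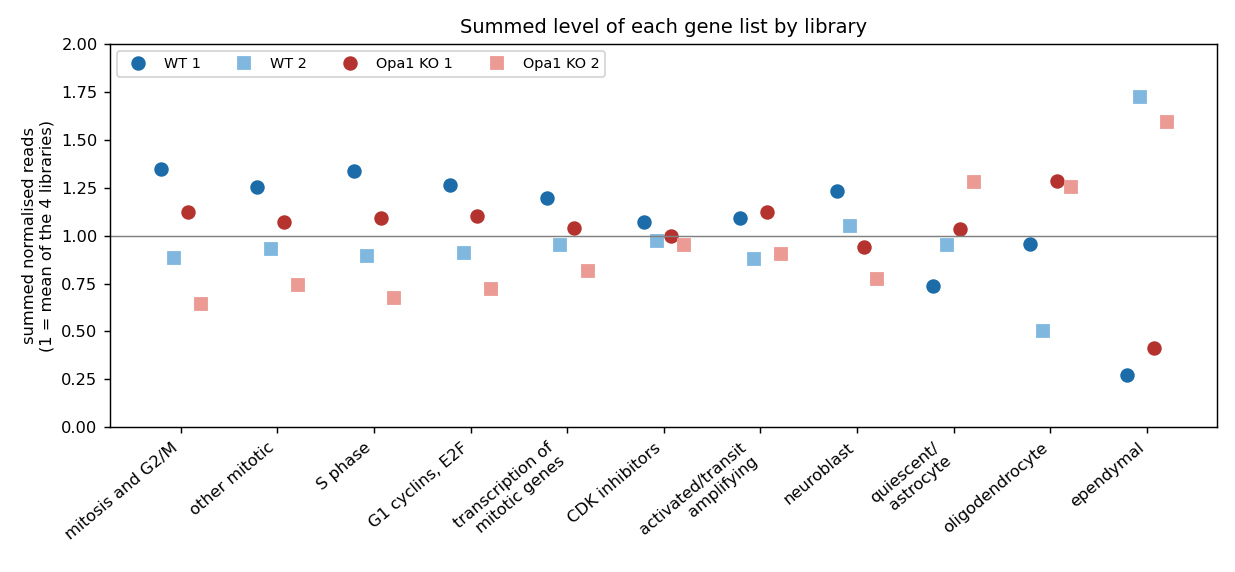
Summed normalised reads of 11 gene lists in each library, divided by the mean of the 4 libraries, so that 1 is that mean; circles are replicates 1 and squares replicates 2. The cell cycle lists share the order WT 1, Opa1 KO 1, WT 2, Opa1 KO 2, neuroblast markers are lower in both Opa1 KO libraries, and ependymal markers are high in WT 2 and Opa1 KO 2.

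Reads shared with other genes could touch a few of these values. Ccnb1, Cdc20 and Cks2 have processed pseudogenes that match at least 200 bases of their transcripts at 95% identity or more, and no such pseudogene averaged above 9.06 normalised reads. Exons of 7 of the 40 genes overlap those of an opposite-strand gene with a mean of at least 100 normalised reads, among them Kif20a with Cdc23 over 1271 bases, Prc1 with Rccd1 over 911 and Kif4 with Pdzd11 over 832. The mean over the 4 libraries was 4993 normalised reads for Cdc23 and 1771 for Kif20a.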

How the data were processed

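Bulk RNA sequencing was measured in 4 libraries, grouped and numbered by their titles. Table columns were mapped through the sample descriptions. Reads were aligned to mm10, and the submitters' notes list featureCounts, HISAT2, SAMtools and DESeq2 without versions. Kit, strand setting and annotation release were not given in the sources used here. In the deposited table, each value is a normalised signal, made by the authors by dividing the read count of a gene by the size factor of its library (1.03 and 1.03 in WT, 0.919 and 1.04 in Opa1 KO). Dividing each column by its smallest step gave whole reads for 100% of values (tolerance 1e-06). The table also holds the authors' own fold changes and p-values, which were not used, and 5 further files that repeat or annotate it were not used.

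The main test was limma-trend with robust moderation (limma 3.58.1, R 4.3.3) on log2(value + 1), with genotype only, fitted to all genes that reached 10 in 2 or more libraries. It was two-sided, and p-values were adjusted over all genes by Benjamini-Hochberg (threshold 0.05). A fold change on this scale understates the change of low genes. edgeR 4.0.16, DESeq2 1.42.0 and limma-voom were run on the recovered reads. Other alternatives were library size or TMM scaling, no filter or a minimum of 50, pseudocounts of 0.5 and 8, the replicate number as a block and leaving out each library. The fit was run on simulated counts with a fixed dispersion and no shift shared by same-numbered libraries. That setting differs from these libraries, so the simulation does not show how the fit performs on them.

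The 40 genes and all other lists were chosen with earlier results of these data known. The genes named with full values were set by rule: 16 central genes, the lowest and highest fold change, the smallest p of each other list and 8 further cell cycle genes. 1 gene of the other mitotic list was not matched. Lists were described by counts and medians beside all genes, with no test. 1 gene of a marker list, named by the rule, is not reported here, and the sum of that list leaves it out. Gene coordinates are from the GENCODE annotation of GRCm38 (mm10), and promoter letters from RefSeq.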

Additional observations from a re-analysis of the deposited data

How the results depend on the processing

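With 2 libraries a genotype, the spread between libraries limits every value. Under the 10 alternatives of scaling, filter, pseudocount and test, the median log2 fold change of the 40 genes stayed between -0.34 and -0.29, 39 of 40 genes were lower and 0 passed the test. Under the 4 of scaling and filter, 0 had both Opa1 KO libraries below both WT libraries. Scaling by library size moved the median of all genes from -0.01 to 0.05. With the replicate block, 2 of the 40 passed, Ccnb1 (adjusted p = 0.0265) and Ube2c (adjusted p = 0.0341), both by limma-trend, and 34 had an unadjusted p under 0.05, all of them lower, as had 8.49% of all genes in that direction. Over all genes the block called 59 lower and 123 higher. The table columns carry other numbers than the titles, again the same set in both genotypes and matched in the same way. Neither set of labels says that libraries with the same number belong together. The deviations of same-numbered libraries from their genotype means correlated at 0.718 across 18547 genes, which are not independent replicates. Leaving out 1 library gave medians from -0.77 to 0.06 and no call, each lone library being assumed to vary like the other genotype. The sign turned for 11 genes without WT 1, 25 without Opa1 KO 2 and 1 each, Cdc25b, without WT 2 and without Opa1 KO 1. It held in all 4 for 14 of the 40 genes. The lowest and highest log2 fold changes of the 26 others were Anln (-0.50 to 0.35), Aurkb (-0.82 to 0.025), Birc5 (-0.75 to 0.022), Bub1 (-0.82 to 0.093), Ccna2 (-0.82 to 0.18), Ccnb2 (-0.69 to 0.18), Cdc20 (-0.78 to 0.14), Cdc25b (-0.19 to 0.49), Cdc25c (-0.71 to 0.17), Cdk1 (-0.78 to 0.094), Cenpa (-0.76 to 0.028), Cks2 (-0.82 to 0.22), Ect2 (-0.69 to 0.17), Hmmr (-0.78 to 0.024), Kif20a (-0.79 to 0.18), Kif20b (-0.62 to 0.071), Kif23 (-0.80 to 0.13), Kif4 (-0.91 to 0.13), Knl1 (-0.55 to 0.077), Ncapd2 (-0.70 to 0.047), Ndc80 (-0.90 to 0.031), Nuf2 (-0.43 to 0.065), Plk1 (-0.69 to 0.14), Smc4 (-0.41 to 0.19), Top2a (-0.81 to 0.083), Ttk (-0.70 to 0.074). The cause was not tested.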
